A study of Homo sapiens with 2 samples.

Results

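The 8 genes described here are AKT1, AKT2, PIK3CA, PIK3CB, PIK3R1, PHLPP1, PDPK1 and INPP4B, parts of the PI3K and AKT pathway. They were taken by symbol from the 36601 genes of the count tables, and all 8 were found. Single cells were measured by 10x Genomics Chromium 3′ libraries in the human prostate epithelial cell line RWPE1, an immortalised line that does not form tumours. The control library, RWPE1, is labelled as carrying the vector only, while the study's text calls these cells parental. The other library, RWPE-ERG-mAKT, was of the same line made to express the ETS transcription factor ERG together with a myristoylated AKT, a form held at the membrane and so active without PI3K. Per the study's methods, both came by retroviral transfer with drug selection, ERG under an HNRNPA2B1 promoter and mAKT as a tagged AKT1. ERG and mAKT were added together, so that their parts in a difference cannot be told apart. With 1 library for each condition there was no replicate check and no test between conditions, so the intervals below cover counting error only.

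Class I PI3K is a pair of a catalytic subunit, such as the products of PIK3CA and PIK3CB, and a regulatory subunit, such as that of PIK3R1, which holds the catalytic subunit stable and inactive until a receptor engages it. Its lipid product brings AKT to the membrane, where PDPK1 and the mTORC2 complex phosphorylate it. INPP4B removes a phosphate from the lipids and PHLPP1 from AKT itself, and so both limit the pathway. INPP4B is often low in prostate cancer.

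Cells with over 2500 detected genes and under 7.5% of UMIs from mitochondrial (MT-) genes were used, 9967 of 12504 barcodes in RWPE1 and 14140 of 17355 in RWPE-ERG-mAKT. They held 192789925 and 225121037 UMIs (unique molecules), with medians of 16972 and 13601 per cell. The cells of RWPE1 had a median MT- share of 5.44%, those of RWPE-ERG-mAKT of 2.73%, and 37 of the cell barcodes used occurred in both libraries. Levels are given as CPM, the UMIs of a gene scaled to a total of 1000000 for the library. ERG, at 1.44 CPM in the control and 20.8 CPM where it was added, had the direction of the labels. The AKT1 level is no check of the labels, because the mAKT transcript ends in vector sequence and may escape 3′ counting. All 8 epithelial markers were at 5 CPM or more in both libraries. The 5 prostate luminal markers summed to 1.69 CPM in RWPE1 and 4.39 in RWPE-ERG-mAKT, with KLK3 at 0 in the latter. Fibroblast markers summed to 1.88 and 26.0 CPM, of which DCN made 0.23 and 23.1, with 1 of the 6 at 0 in each library. Immune markers summed to 1.09 and 0.14 CPM, and endothelial markers to 1.02 and 0.93. The part of these markers in the results was not tested.

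INPP4B showed the widest difference of the 8 genes between the libraries. It stood at 199 CPM in RWPE1 (38389 UMIs, 95% Poisson interval 197 to 201) and at 39.6 CPM in RWPE-ERG-mAKT (8912 UMIs, 38.8 to 40.4). That is 5.03-fold lower, for a log2 ratio of -2.33 (-2.36 to -2.30), and of the 10744 genes with a mean of at least 5 CPM 169 had a lower ratio. In RWPE1 it was above 94.2% of those genes in level. PIK3CB, the beta catalytic subunit, was at 40.7 CPM in RWPE1 (39.8 to 41.6) and 18.9 CPM in RWPE-ERG-mAKT (18.4 to 19.5), 2.15-fold lower, with a log2 ratio of -1.10 (-1.16 to -1.05). These were the 2 of 8 genes at least 1.5-fold lower, and both were also at least 2-fold lower, whereas 0 of 8 were at least 1.5-fold higher. Over all 10744 genes, 25.8% were at least 1.5-fold lower and 18.2% at least 1.5-fold higher, and 12.7% and 7.89% passed 2-fold. The 2 of 8 lower genes are thus near the share of all genes. The median log2 ratio of the 8 genes was -0.30 and that of all genes -0.09.

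**Figure D1:**
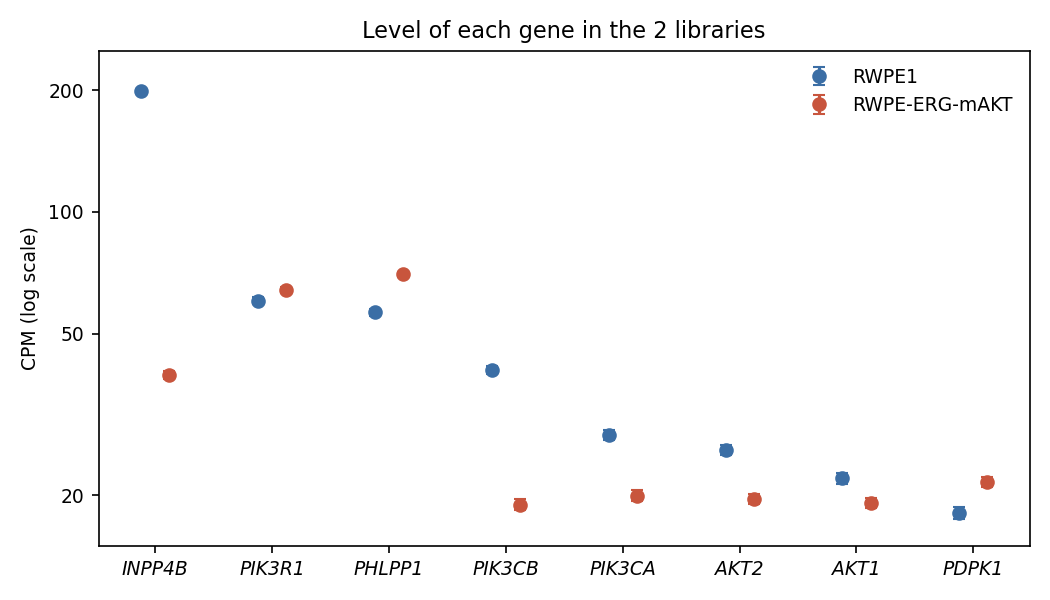
Level of each gene in CPM (log axis) in RWPE1 (blue) and RWPE-ERG-mAKT (red), with exact 95% Poisson intervals, 1 library each. INPP4B (199 and 39.6) and PIK3CB (40.7 and 18.9) are the pair of genes set furthest apart.

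INPP4B is the largest of the 8 genes, 824 kb on the minus strand of chromosome 4 (chr4:142023160-142847432, GENCODE release 29 on GRCh38), and PIK3CB spans 182 kb on the minus strand of chromosome 3 (chr3:138652699-138834938). Since ERG binds DNA through the ETS core GGAA, the 250 bases before the outermost start site in RefSeq (GRCh38.p14) are shown for these 2 genes, 5′ to 3′ on the gene's strand, with GGAA or its reverse TTCC in capitals. The windows are chr4:142846302-142846551 for INPP4B and chr3:138834929-138835178 for PIK3CB. The INPP4B window lies inside the span that GENCODE gives the gene, which begins further upstream than any INPP4B start in the RefSeq table.
INPP4B: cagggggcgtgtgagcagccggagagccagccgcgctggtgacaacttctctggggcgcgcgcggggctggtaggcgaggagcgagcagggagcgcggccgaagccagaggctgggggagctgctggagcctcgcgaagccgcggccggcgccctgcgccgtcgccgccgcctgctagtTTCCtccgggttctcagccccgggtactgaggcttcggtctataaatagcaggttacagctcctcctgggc
PIK3CB: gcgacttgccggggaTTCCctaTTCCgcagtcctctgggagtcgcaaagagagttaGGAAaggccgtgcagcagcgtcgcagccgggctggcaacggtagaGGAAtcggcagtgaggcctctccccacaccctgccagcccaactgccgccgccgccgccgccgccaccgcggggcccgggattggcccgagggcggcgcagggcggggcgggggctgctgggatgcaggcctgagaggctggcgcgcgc
The INPP4B window held 1 core, beginning 71 bases before the start, and the PIK3CB window 4, beginning between 149 and 235 bases before it. All 8 genes were in the RefSeq table and had at least 1 core, as had 92.7% of all 35116 promoter windows of this length. The longer form CCGGAA, on either strand and overlapping the core, was in the windows of PIK3CA and PDPK1 and in 14.5% of all windows. A match is a description of letters and no measured binding.

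Among the other catalytic and regulatory subunits, differences were smaller. PIK3CA, the alpha catalytic subunit, was at 28.1 CPM in RWPE1 (27.4 to 28.9) and 19.9 in RWPE-ERG-mAKT (19.4 to 20.5), for a log2 ratio of -0.50 (-0.55 to -0.44). PIK3R1 was at 60.4 CPM in RWPE1 (59.3 to 61.5) and 64.2 in RWPE-ERG-mAKT (63.2 to 65.3), for a log2 ratio of 0.09 (0.05 to 0.12). When each cell was scaled to its own total, the mean PIK3R1 level was 1.78% lower in RWPE-ERG-mAKT, so its direction depended on the weight given to deep cells. PIK3CB was thus above PIK3CA in RWPE1, while in RWPE-ERG-mAKT their intervals overlapped.

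AKT1 and AKT2 were close to each other in level. AKT1 was at 22.0 CPM in RWPE1 (21.4 to 22.7) and 19.1 in RWPE-ERG-mAKT (18.6 to 19.7), for a log2 ratio of -0.20 (-0.26 to -0.14). AKT2 was at 25.8 CPM (25.1 to 26.5) and 19.6 (19.0 to 20.2), for a log2 ratio of -0.40 (-0.46 to -0.34). Neither passed 1.5-fold. No excess of AKT1 counts in the library with the mAKT transgene was seen, and the deposited counts cannot separate transgene from endogenous AKT1. AKT2 overlaps AC118344.1 on the same strand, so that some of its reads are uncertain.

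The upstream kinase and the AKT phosphatase were higher in RWPE-ERG-mAKT, by less than 1.5-fold. PDPK1, which phosphorylates the activation loop of AKT, was at 18.1 CPM in RWPE1 (17.5 to 18.7) and 21.6 in RWPE-ERG-mAKT (21.0 to 22.2), for a log2 ratio of 0.26 (0.19 to 0.32). Its counts are uncertain, since the gene has a near-identical pseudogene copy and overlaps AC093525.5 on the same strand. PHLPP1 was at 56.5 CPM (55.4 to 57.5) and 70.1 (69.0 to 71.2), for a log2 ratio of 0.31 (0.28 to 0.35). Its paralog PHLPP2 had the opposite sign, at 24.9 and 18.8 CPM, for a log2 ratio of -0.41 (-0.47 to -0.35).

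The order of the 8 levels changed with the library. In RWPE1 it ran INPP4B, PIK3R1, PHLPP1, PIK3CB, PIK3CA, AKT2, AKT1 and PDPK1, and no neighbours in that order had overlapping intervals. In RWPE-ERG-mAKT it ran PHLPP1, PIK3R1, INPP4B, PDPK1, PIK3CA, AKT2, AKT1 and PIK3CB, and the last 4 genes, between 18.9 and 19.9 CPM, overlapped with their neighbours. A 3′ tag is counted once for a captured molecule and is not divided by transcript length. Where intronic reads are counted, as is the default of Cell Ranger in this version, priming inside introns can add tags to long genes. Whether introns were counted is not given in the sources used here, and the genes span from 26.4 kb (AKT1) to 824 kb (INPP4B), so these orders are of tags and not of transcripts.

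At equal depth, with each cell thinned to 5000 UMIs, 54.9% of RWPE1 cells had an INPP4B UMI (5468 of 9967 cells, Clopper-Pearson interval 53.9 to 55.8%). In RWPE-ERG-mAKT the share was 14.2% (2001 of 14134 cells, 13.6 to 14.7%), 3.88-fold lower, with 6 shallower cells left out. In RWPE1 30.1% of thinned cells had 1 INPP4B UMI, 14.4% had 2 and 10.4% had 3 or more, against 11.3%, 1.995% and 0.906% in RWPE-ERG-mAKT. The highest thinned cell had 27 INPP4B UMIs in RWPE1, against 11 for RWPE-ERG-mAKT. The lower sum in RWPE-ERG-mAKT was thus seen both in fewer cells with a UMI and in fewer cells with several.

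PIK3CB was found in 17.8% of thinned RWPE1 cells (17.1 to 18.6%) and 9.21% of RWPE-ERG-mAKT cells (8.74 to 9.70%). The share for PIK3CA was 13.3% of RWPE1 cells and 9.42% of RWPE-ERG-mAKT cells, for AKT2 11.98% and 8.87%, and for AKT1 10.6% and 9.03%. PIK3R1 was found in 24.5% and 26.1% of cells, PHLPP1 in 23.0% and 28.4%, and PDPK1 in 8.22% and 10.0%. At this depth all 8 shares had the direction of the summed level, and INPP4B and PIK3CB were the 2 at least 1.5-fold apart. With seed 1 no intervals overlapped between libraries, but those of PIK3R1 nearly met, at 23.6 to 25.3% and 25.4 to 26.9%. With seed 2 its shares were closer, at 24.5% and 25.9%, and intervals were not computed. With this many cells small differences separate, and the share of all genes without overlap was not computed. Without thinning the shares were larger, for instance 85.4% and 31.7% for INPP4B, and 2 genes turned direction, PIK3R1 at 56.0% and 53.6% and PDPK1 at 28.2% and 27.6%. Thinned to 2500 UMIs, PIK3R1 was found in 14.1% of RWPE1 cells and 14.3% of RWPE-ERG-mAKT cells. No cell type in these cultures should lack these genes, so a background from free RNA could not be read. ERG was found in 0.702% of thinned RWPE1 cells (70 cells) and in 9.33% of those of RWPE-ERG-mAKT. This gives no such background, since free RNA comes from the cells of the same library and RWPE1 carried no added ERG.

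**Figure D2:**
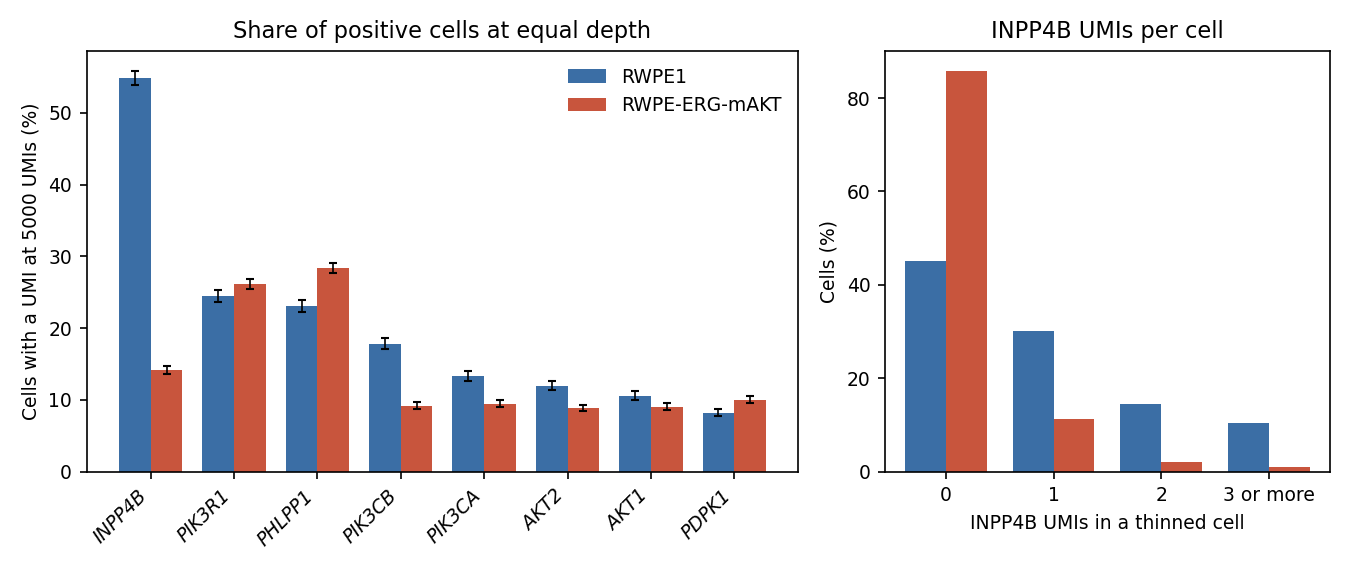
Left, share of cells (%) with at least 1 UMI of each gene after thinning to 5000 UMIs, with Clopper-Pearson intervals, in RWPE1 (blue) and RWPE-ERG-mAKT (red). Right, share of cells (%) by number of INPP4B UMIs, where 45.1% of RWPE1 cells and 85.8% of RWPE-ERG-mAKT cells had 0.

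The ratio of variance to mean of the UMIs per cell was larger for PIK3R1 and INPP4B than for AKT1 and AKT2. For a count that varied by sampling alone, the variance over thinned cells would equal the mean. The ratio of variance to mean was 1.01 for AKT1 and for AKT2 in both libraries. It was 1.61 for INPP4B in both libraries, and 1.57 in RWPE1 and 1.21 in RWPE-ERG-mAKT for PIK3R1. PHLPP1 was at 1.16 and 1.24. For a like relative spread this ratio rises with the mean, which in RWPE1 was 0.978 for INPP4B and 0.112 for AKT1. In RWPE-ERG-mAKT these means were 0.187 and 0.0952. The ratios therefore cannot rank genes of unlike level, or 1 gene in the 2 libraries, by relative spread.

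Cells were clustered within each library without the pathway genes, which gave 9 clusters in RWPE1 and 10 in RWPE-ERG-mAKT. PIK3R1 ranged from 36.3 to 258 CPM over the RWPE1 clusters. It was highest in cluster 6 (284 cells, led by AC009271.1, TMTC1 and SHISA9) and next, at 128 CPM, in cluster 4 (1144 cells, led by NTM, CUX2 and KCNMA1). These 2 clusters held 2.85% and 11.5% of the RWPE1 cells and 8.37% and 20.6% of the PIK3R1 UMIs. The other 7 RWPE1 clusters were at 36.3 to 88.1 CPM and the RWPE-ERG-mAKT clusters at 29.97 to 98.4 CPM. PIK3R1 was also lower in deeper cells of RWPE1, at 91.3 CPM in the 2491 cells with the fewest UMIs and 50.9 in the 2492 with the most. The median depth of clusters 6 and 4 was 11540.5 and 13816 UMIs per cell, among the 3 lowest of the RWPE1 clusters. The other of these 3, cluster 5, had 13513 UMIs per cell and PIK3R1 at 40.2 CPM.

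INPP4B ranged from 116 to 257 CPM over the RWPE1 clusters and from 12.2 to 64.4 CPM over the RWPE-ERG-mAKT clusters, with no overlap. Within RWPE1 it was highest in cluster 0 (3186 cells, led by PPP2R2B, GREB1L and FGFR2) and lowest in cluster 3 (1212 cells, led by CXCL14, KLK5 and KLK10). In that cluster 3 both catalytic subunits were at their highest, PIK3CA at 43.0 CPM and PIK3CB at 59.5. In RWPE-ERG-mAKT, INPP4B was highest in cluster 3 (led by GDF15, PI3 and CH25H) at 64.4 CPM and in cluster 1 (led by GALNT13, GNGT1 and COBL) at 62.7. PIK3CB ranged from 32.2 to 59.5 CPM in RWPE1 clusters and from 6.65 to 24.9 in RWPE-ERG-mAKT clusters, and AKT2 from 22.6 to 28.04 and from 16.6 to 21.9, also without overlap. At the finer resolution of 1, which gave 12 and 14 clusters, all 3 genes overlapped, with INPP4B at 80.4 CPM in its lowest RWPE1 cluster and 105 in its highest RWPE-ERG-mAKT cluster. The share of all genes without overlap between the clusters of the libraries was not computed, so the lack of overlap does not set these 3 genes apart. Clusters of 1 library share their source and are no replicates.

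AKT1 was even over RWPE1 clusters, at 18.6 to 25.1 CPM, and less so over RWPE-ERG-mAKT clusters, at 11.9 to 29.8. There it was highest in cluster 2 (2151 cells, led by S100A8, SERPINB2 and FBN2, 28.03 to 31.6) and lowest in clusters 3 and 4, both at 11.9 CPM, so that INPP4B and AKT1 had opposite places in cluster 3. PHLPP1 was highest in cluster 1 of RWPE-ERG-mAKT, at 98.3 CPM, and ranged from 45.7 to 65.2 in RWPE1. PDPK1 ranged from 12.7 to 26.9 CPM in RWPE1 and from 17.8 to 26.4 in RWPE-ERG-mAKT.

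Cluster 7 of RWPE-ERG-mAKT (906 cells, led by SNHG29, GAPDH and MRPL12) was the lowest of that library for 7 of the 8 genes, all but AKT1. The share of all genes lowest in this cluster was not computed, so the count is no result about these genes. In cluster 7 PIK3CB was at 6.65 CPM, PIK3CA at 9.84, INPP4B at 12.2 and PHLPP1 at 24.99. The nuclear RNA MALAT1 was at 1982 CPM in this cluster and at 6914 to 10241 CPM in the other 9, and its part in the low levels was not tested. Without these cells INPP4B had a log2 ratio between libraries of -2.24 and PIK3CB of -1.02.

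**Figure D3:**
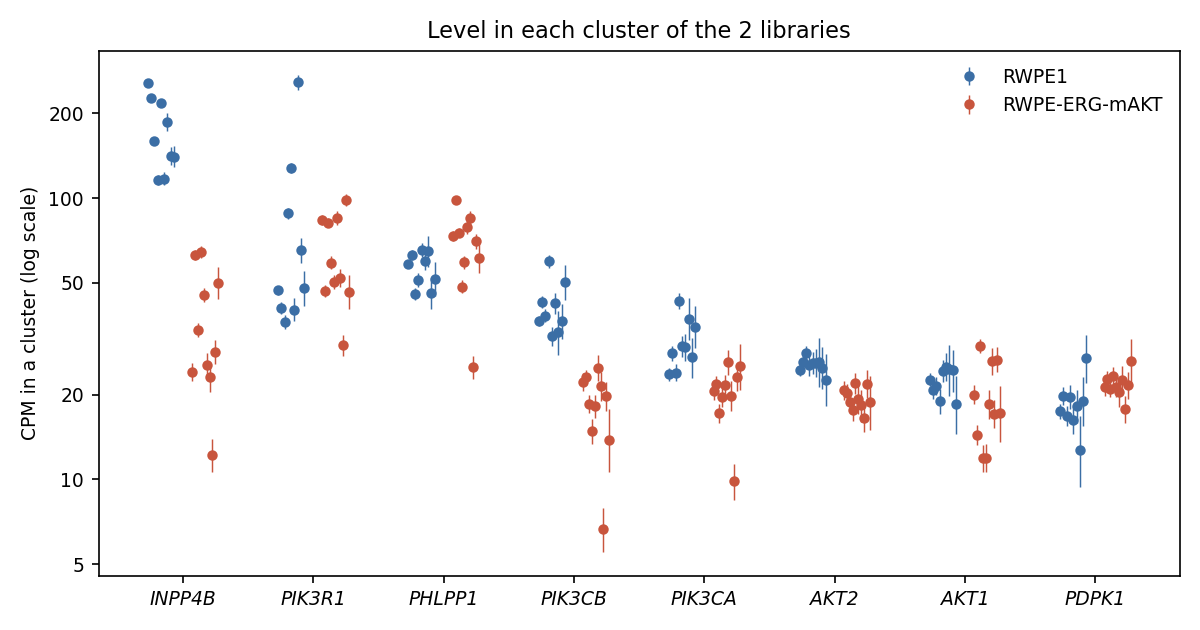
Level of each gene in each cluster (points, CPM on a log axis, 95% Poisson intervals) of RWPE1 (9 clusters, blue) and RWPE-ERG-mAKT (10 clusters, red). INPP4B lies at 116 to 257 in RWPE1 and 12.2 to 64.4 in RWPE-ERG-mAKT, and PIK3R1 has 1 RWPE1 cluster at 258.

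Over the 19 clusters, each library centred on its own mean of log2(CPM + 10), genes most like each of the 8 were sought among 6788 genes. Those for PIK3CB were VPS8 and ARMH3 (Pearson r of 0.94 and 0.93), for PIK3CA BPTF and UBR2 (0.89 and 0.88) and for PIK3R1 MTPN and ARHGEF35 (0.92 and 0.91). For PHLPP1 they were MARCH6 and PTPN4 (both 0.92), for PDPK1 TUT7 (0.92) and for INPP4B ZBTB38 and PRKAG2 (0.83 and 0.82). For AKT1 they were C12orf75 and SIVA1 (0.88 and 0.87) and for AKT2 FOXK1 and LARP1 (both 0.81). Among the 8 genes, r was 0.68 for PIK3CA with PIK3CB and 0.66 for PIK3CB with PHLPP1, and 0.42 and 0.27 without cluster 7 of RWPE-ERG-mAKT. These are descriptions, since clusters share a library, its depth and its nuclear RNA content.

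The libraries differed in MT- share, so levels were also compared within cells of like share. INPP4B was lower in RWPE-ERG-mAKT in all 4 bins, with log2 ratios of -2.49 below 1%, -2.05 from 1 to 2.5%, -2.27 from 2.5 to 5% and -2.02 from 5 to 7.5%. PIK3CB was also lower in all 4, at -2.29, -0.53, -0.95 and -0.98. The first bin held 18 RWPE1 cells and the second 177, against 430 and 5402 in RWPE-ERG-mAKT. PIK3R1 moved from 1.07 in the second bin to -0.04 (-0.17 to 0.09) in the last. PHLPP1 was at -0.81 in the first, with 29 UMIs in RWPE1, and at 1.03, 0.45 and 0.52 in the later bins. These 2 genes thus did not keep 1 sign. AKT1, AKT2 and PIK3CA were negative in all 4 bins, with intervals that reached 0 in at least 1 bin, and PDPK1 was positive in all 4, with intervals that reached 0 in the first 2.
In cells with 7.5% or more MT- UMIs, which were left out (1575 in RWPE1 and 107 in RWPE-ERG-mAKT), INPP4B was at 201 and 123 CPM, for a log2 ratio of -0.71 (-0.96 to -0.46). PIK3CB there was at -0.43 (-0.90 to 0.01) and PHLPP1 at 1.14 (0.90 to 1.37).

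**Figure D4:**
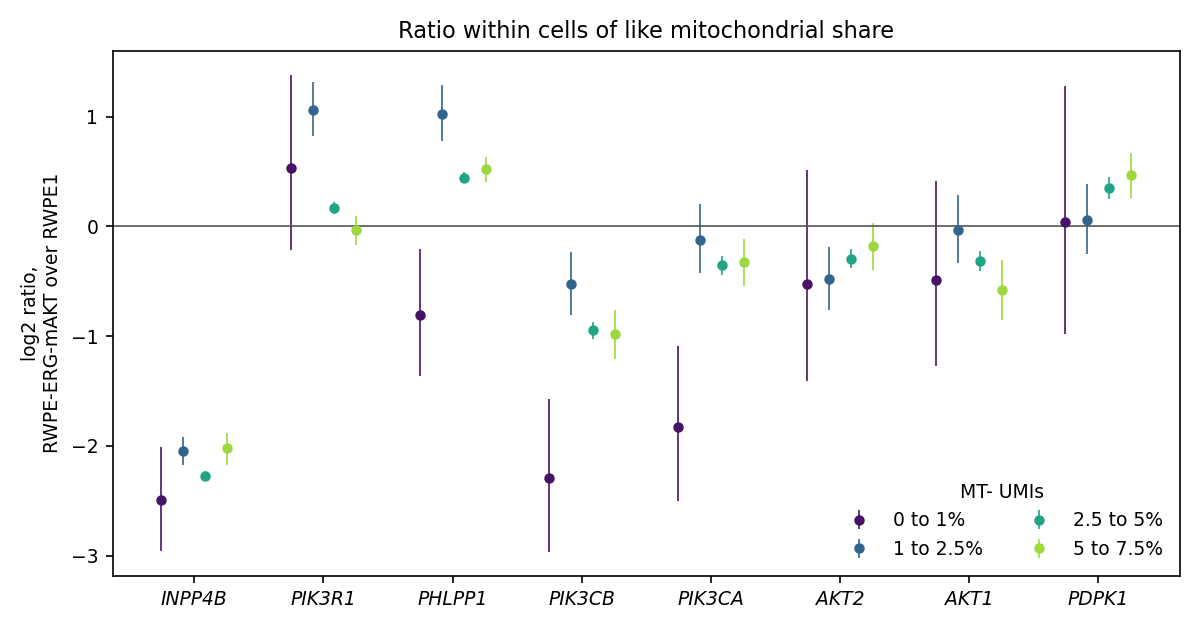
Log2 ratio of CPM, RWPE-ERG-mAKT over RWPE1, for each gene within 4 ranges of MT- share (colours), with exact 95% counting intervals. INPP4B lies between -2.49 and -2.02 in the 4 ranges, while PHLPP1 and PIK3R1 cross 0.

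Within RWPE-ERG-mAKT, cells of 10000 to 20000 UMIs with an ERG UMI (1558 cells) were set beside those without (5259 cells). INPP4B was at 40.8 CPM with ERG and 38.2 without, for a log2 ratio of 0.10 (-0.01 to 0.20). The interval left out 0 for PIK3CA at 0.26 (0.11 to 0.40), PHLPP1 at 0.15 (0.07 to 0.23) and PIK3CB at 0.16 (0.01 to 0.31), all higher in cells with ERG. The share of all genes whose interval left out 0 was not computed, so this does not set these 3 genes apart. Thinned to 5000 UMIs, the shares of cells with and without ERG had overlapping intervals for all 3 of these genes, for instance 9.56% (8.15 to 11.1%) and 8.80% (8.05 to 9.60%) for PIK3CA. INPP4B was then found in 13.5% of cells with ERG (11.8 to 15.3%) and 15.1% of those without (14.1 to 16.1%), also overlapping and in the other direction than its CPM. A cell without an ERG UMI may still express ERG, and the median depth was 14440.5 UMIs with ERG and 13490 without.

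The 8 genes were then set among a wider list of 65 pathway genes, of which 54 had a mean of at least 5 CPM. Of these 54, 15 were at least 1.5-fold lower in RWPE-ERG-mAKT (25.8% of all genes), 7 were at least 1.5-fold higher (18.2% of all genes) and 32 were not past 1.5-fold. Their median log2 ratio was -0.21. Under median-of-ratios scaling, which moved the median of all genes from -0.09 to 0.04, 13 were lower and 9 higher, and of all genes 20.7% were lower and 23.6% higher.

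Among the phosphoinositide phosphatases, INPP4B, INPP4A and INPP5D were at least 2-fold lower in RWPE-ERG-mAKT, as were 12.7% of all genes. A group this small was not tested against that share. Beside INPP4B, its paralog INPP4A was at 22.8 CPM in RWPE1 and 9.36 in RWPE-ERG-mAKT, for a log2 ratio of -1.28 (-1.36 to -1.21). INPP5D, which removes a phosphate from the PI3K product, was at 12.2 and 5.79 CPM, for a log2 ratio of -1.08 (-1.18 to -0.98). INPPL1 and INPP5E were not past 1.5-fold.

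Of the class I catalytic subunits, PIK3CD was at 2.49 and 1.81 CPM, below the limit for the count, and PIK3CG had 1 UMI in RWPE1 and 0 in RWPE-ERG-mAKT. The regulatory subunit PIK3R2 was at 21.0 and 13.4 CPM, for a log2 ratio of -0.64 (-0.71 to -0.57), and PIK3R3 at 22.1 and 20.1 CPM, for a log2 ratio of -0.14 (-0.20 to -0.08). Among the other PI3-kinases and the adaptors, 3 of the 7 measured were at least 1.5-fold lower and 1 higher, against 25.8% and 18.2% of all genes. PIK3C2B, a class II kinase, was at 12.8 and 2.08 CPM (-2.62). The insulin receptor substrates had opposite signs, with IRS2 at 28.5 and 95.2 CPM (1.74) and IRS1 at 26.5 and 11.7 CPM (-1.18).

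The 5 measured genes for activation of AKT, the kinase gene PDPK1 and 4 parts of the mTOR complexes, were all within 1.5-fold. Of all genes, 18.2% were at least 1.5-fold higher and 25.8% lower, with the rest within 1.5-fold, and a group of 5 was not tested against these shares. Among the AKT phosphatases and binding regulators, 3 of 9 were at least 1.5-fold higher and 1 lower, with a median of 0.31, against 18.2% and 25.8% of all genes. The catalytic subunit PPP2CB of protein phosphatase 2A was at 39.0 CPM in RWPE1 and 96.9 in RWPE-ERG-mAKT (1.31), its regulatory subunit PPP2R2A at 73.2 and 130 CPM (0.83), and TRIB3, a pseudokinase that binds AKT, at 52.0 and 16.9 CPM (-1.62). Of 17 measured AKT substrates and mTORC1 genes, 2 were at least 1.5-fold higher and 4 lower, against 18.2% and 25.8% of all genes. RHEB, the GTPase that activates mTORC1, was at 86.2 and 252 CPM (1.55), GSK3B at 289 and 118 CPM (-1.30) and TBC1D4 at 67.0 and 33.5 CPM (interval -1.04 to -0.96). The AKT-related kinase SGK1 was at 26.6 and 71.6 CPM (1.43) and SGK3 at 37.6 and 23.1 CPM (-0.70).

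**Figure D5:**
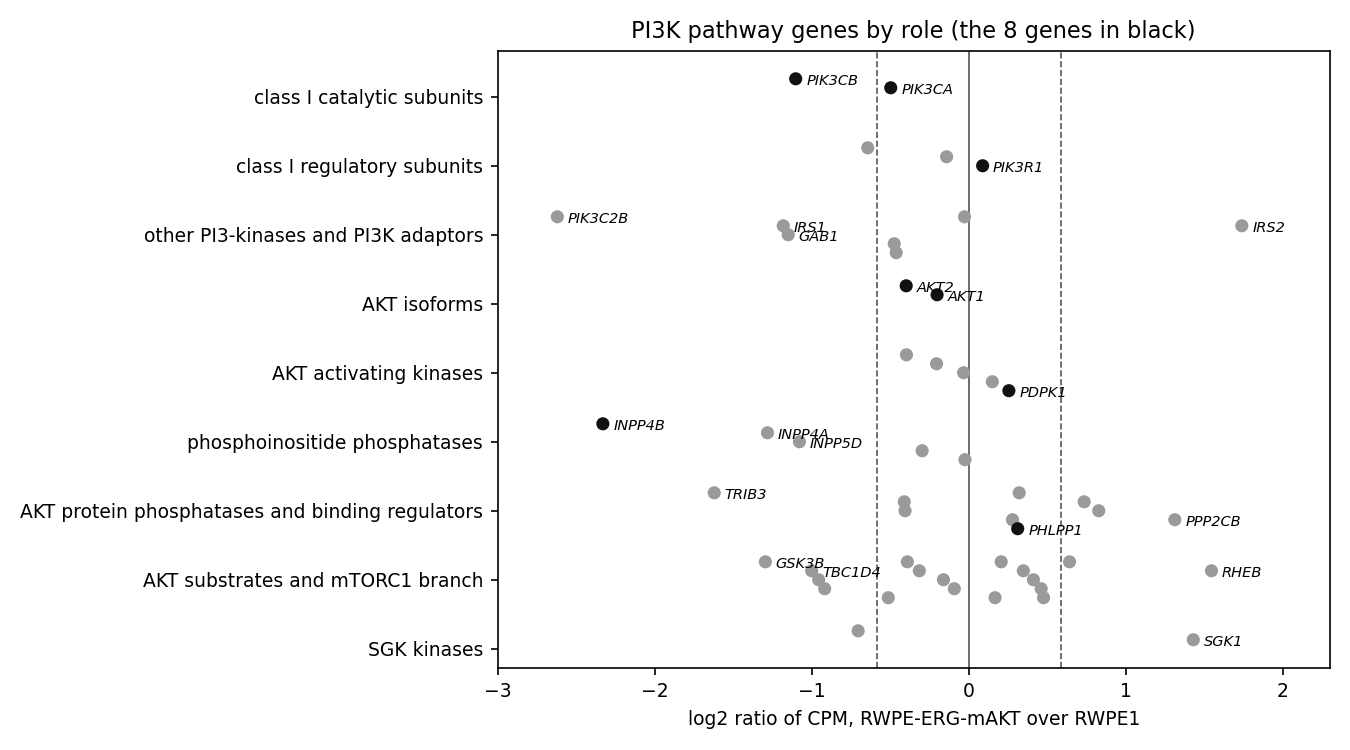
Log2 ratio of CPM, RWPE-ERG-mAKT over RWPE1, for 52 of the 54 measured pathway genes in rows by role, with the 8 genes in black, the others in grey and dashed lines at 1.5-fold. The phosphoinositide phosphatases shown lie left of 0, from INPP4B at -2.33 to INPPL1 at -0.02, and AKT1 and AKT2 lie between the dashed lines.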

How the data were processed

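Single-cell RNA of RWPE1 and RWPE-ERG-mAKT was measured with the Chromium Next GEM 3′ v3.1 chemistry, 1 library each. Per the labels and the paper, the authors used Cell Ranger 7.1.0 and hg38, and what they deposited are raw counts of UMIs by gene and barcode, with no normalization. Cells with over 2500 genes were kept, in place of the study's limits of 200 to 2500 genes, which were tried as an alternative. No doublet caller was run.

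UMIs were summed over cells and given as CPM with exact Poisson intervals, with the conditional binomial interval for ratios. Shares came from cells thinned without replacement to 5000 UMIs (seed 1), with Clopper-Pearson intervals. With 1 library for each condition, genes were called by fold (1.5 and 2) among genes with a mean of at least 5 CPM. Clusters used 2000 variable genes, 30 components, 15 neighbours and Leiden at resolution 0.5, with clusters under 100 cells left out. The code for ratio intervals was tested on simulated counts. The thinning code was tested on the RWPE1 cells, against the means expected from their counts. Named pathway genes are all 8 genes, fixed paralogs and up to 3 genes of the largest log2 ratio in each role. Some genes that this rule names are not reported here. The 8 genes, the pathway list and the marker lists were chosen with earlier results of these data known. Coordinates were from GENCODE release 29, which held 94.6% of gene IDs, and promoters from RefSeq. The tools were scanpy 1.11.5, leidenalg 0.10.2, igraph 0.11.9, scikit-learn 1.9.0, scipy 1.17.1, numpy 2.4.6, matplotlib 3.10.9 and pandas 2.3.3 under Python 3.11.15.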

Additional observations from a re-analysis of the deposited data

How the results depend on the processing

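The median log2 ratio of the 8 genes, -0.30, was -0.16 under median-of-ratios scaling, -0.53 in cells with 200 to 2500 genes (362 and 2775 in the libraries) and -0.10 in cells with 7.5% or more MT- UMIs. In cells with 200 to 2500 genes 4 of the 8 genes were at least 1.5-fold lower in place of 2 (33.1% of all genes in place of 25.8%), with AKT2 at -0.62 and PIK3CA at -0.69. In cells with 7.5% or more MT- UMIs 1 was lower (INPP4B) and 1 higher (PHLPP1), and 13 of 55 pathway genes were higher in place of 7 of 54 (21.7% of all genes in place of 18.2%). With a minimum mean of 20 CPM, 9 pathway genes were lower in place of 15, of 41 measured in place of 54 (22.4% of all genes in place of 25.8%). In 10 alternatives INPP4B stayed below 0, from -3.13 to -0.71, and PIK3CB from -1.14 to -0.43. PIK3R1 ranged from -0.33 to 0.23, PIK3CA from -0.69 to 0.02 and PDPK1 from -0.45 to 0.39. The causes were not tested. At cluster resolution 1, 5 of the 8 genes differed at least 2-fold between clusters in both libraries, in place of 2. The share of all genes that did so was not computed. The other 4 settings for shares left the same number of genes, 2, at least 1.5-fold apart. Leaving out the RWPE-ERG-mAKT cluster with the lowest MALAT1 was an alternative chosen after seeing the data. No paired analysis was possible because there was 1 library for each condition.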

Other observations

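Levels of the genes around each of the 8 genes were also read, with a window of 5 Mb on either side that was chosen after the values were seen. Around INPP4B, 26 genes on chromosome 4 with a mean of at least 5 CPM had a median log2 ratio of 0.10, and 0 of them had a ratio as low as that of INPP4B. Around PIK3CB, the median of 36 genes was -0.16, and 4 were below PIK3CB. Around PHLPP1 on chromosome 18 the median of 20 genes was 0.80, with 8 at least 2-fold higher, while all 161 measured genes of the chromosome had a median of 0.30. Over all 10744 genes, 7.89% were at least 2-fold higher and 12.7% at least 2-fold lower. PHLPP1 itself, at 0.31, was below most of its neighbours. Around AKT1 the median of 44 genes was -0.46, and 27 were below AKT1. Of these 44, 11 were at least 2-fold lower and 0 at least 2-fold higher. The 121 genes around PDPK1 had a median of -0.26, with 26 at least 2-fold lower and 3 higher, and 95 were below PDPK1. For AKT2 the median of 128 genes was -0.11 and for PIK3CA that of 27 genes was -0.01. Around PIK3R1 the median of 35 genes was 0.01.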
